A study of Mus musculus with 6 samples.

Results

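The genes described here are 10 Reg lectins and secreted antimicrobial proteins of the gut surface, namely Reg3b, Reg3g, Reg3a, Reg1, Reg4, Ang4, Lyz1, Retnlb, Lypd8, and Itln1. They are 10 of the 27546 genes in a table of distal colon RNA-Seq values, found by their mouse symbols. The set was put together with the difference between the groups known, so the values of these 10 genes are a description of the 6 libraries and carry no test. Genes outside the set were tested.

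Antimicrobial proteins keep bacteria away from the intestinal epithelium. Reg proteins are small secreted C-type lectins, and Reg3g and Reg3b, which bind bacterial surfaces, are switched on in epithelial cells by microbial signals through MyD88 and by the cytokine IL-22 through STAT3. Goblet cells, Paneth cells, and deep crypt secretory cells make further members such as Retnlb, Ang4, lysozyme, and Reg4, whereas Lypd8 is made by surface colonocytes.

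The libraries were made from the distal colon of 3 Gm31629-/- mice and of 3 WT littermates, which lack or carry the long noncoding RNA Gm31629. All 6 mice were C57BL/6, were 8 weeks old, drank 3% dextran sulfate sodium (DSS, a polymer that injures the colonic epithelium) for 7 days, and were sacrificed on day 8. No library came from a mouse without DSS, so levels cannot be set against an uninjured colon. The methods describe total RNAs pooled from the mice of both groups, yet the table has 1 column per mouse, and each column was treated here as 1 mouse. Gm31629 itself was not analysed here, so the genotypes rest on the labels.

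Values are FPKM, fragments divided by exon length and by library depth, so levels can be compared between genes. Depth was 18005954 to 18795144 fragments per library, as recovered from the FPKM steps, and a value of 0 allows up to 3 fragments. Such limits cover counting error only. The 14657 genes with a mean of 0.5 FPKM or more were tested, and calls needed an adjusted p from limma under 0.05 together with a change beyond 1 on the log2 scale of FPKM + 1 in either direction. Libraries differed in ways that touch the genes below. Gm31629-/- mouse 3 alone carried pancreatic acinar genes, with a summed level of 2508 FPKM over 10 markers against 26.4 to 53.8 FPKM in the other 5 libraries. Gm31629-/- mouse 1 alone showed Y-linked genes (Ddx3y at 9.27 FPKM against 0 in the others) and almost no Xist, although the methods name male mice. Summed smooth muscle markers were 1129 to 1728 FPKM in Gm31629-/- mice and 19.1 to 35.3 FPKM in WT mice. Of the 9 tested markers, 8 were called higher, beside 18.4% of all tested genes. Of the distal colon markers, Hoxd13 was listed at 0 in all 3 WT libraries and at 8.12, 19.2, and 16.4 FPKM in Gm31629-/- mice. Summed small intestine markers were 130 to 151 FPKM in the WT mice and 11.4 to 77.3 FPKM in Gm31629-/- mice. Most of the WT sum was Fabp2 and Alpi, the 2 of 7 tested markers that were called lower, beside 4.64% of all tested genes. The part of tissue makeup, colon position, and sex in the differences below was not tested. In whole tissue, fewer cells of a type and less RNA per cell cannot be told apart.

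Reg3b and Reg3g, the lectins with the widest separation between the groups, lie at the ends of a Reg cluster on chromosome 6. Their upstream sequences, and that of Reg3a from the same cluster for contrast, are shown as the 150 bases before the RefSeq start of each gene (GRCm38.p6), written 5′ to 3′ on the strand of the gene. Capitals mark TATAAA, the letters of a TATA box, and TTCNNNGAA, the letters that STAT factors are known to prefer. The stretches lie at chr6:78370735-78370884 (Reg3b, plus strand), chr6:78468875-78469024 (Reg3g, minus strand), and chr6:78380559-78380708 (Reg3a, plus strand).
Reg3b: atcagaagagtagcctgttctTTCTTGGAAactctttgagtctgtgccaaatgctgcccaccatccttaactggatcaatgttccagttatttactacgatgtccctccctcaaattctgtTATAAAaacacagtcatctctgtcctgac
Reg3g: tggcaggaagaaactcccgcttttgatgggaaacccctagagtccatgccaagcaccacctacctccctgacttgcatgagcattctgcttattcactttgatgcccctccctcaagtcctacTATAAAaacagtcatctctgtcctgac
Reg3a: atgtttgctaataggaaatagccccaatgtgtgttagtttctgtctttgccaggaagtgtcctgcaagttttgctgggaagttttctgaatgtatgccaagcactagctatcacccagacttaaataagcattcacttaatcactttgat

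Reg3b and Reg3g shared 69.2% of the 250 bases before their starts, compared with 49.2% to 58.0% for the other pairs of the 9 members that had an entry. In Reg3b, TATAAA began 29 bases and TTCTTGGAA 129 bases before the start. In Reg3g, TATAAA began 27 bases before the start, and TTCNNNGAA was not in the window. A further TATAAA of Reg3g lay on the opposite strand, 161 to 156 bases before the start and outside the stretch shown. Reg1 also had TATAAA, beginning 30 bases before its start, and Ang4 had TTCNNNGAA, beginning 192 bases before its start. Over 32851 mouse promoter windows of 250 bases, searched on both strands, 12.4% held TATAAA and 7.02% held TTCNNNGAA. A 10-base form of the NF-κB motif was in 1.41% of these windows and in none of the members with an entry. Other forms of the NF-κB motif were not searched, so the members may hold them. The matches found describe letters in a window and not bound sites. The last bases of the Reg3a window recur in Reg3g upstream of its TATAAA. The annotated starts of these genes may therefore not be matching points. The Reg3b stretch shown and the Reg1 window lie inside the gene positions given below, which come from another annotation (GENCODE) with other starts. How far the matches and identities of Reg3a, Reg3b, and Reg1 depend on their annotated starts was not tested. Coding sequences of Reg3b and Reg3g were 76.0% identical, and each was less like Reg3a (75.4% and 73.3%).

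Reg3b, a lectin that acts on Gram-negative bacteria, was among the most abundant transcripts of the WT colon and was far lower in each Gm31629-/- mouse. Its level was 4811, 6704, and 4247 FPKM in WT mice 1 to 3 and 48.1, 1.71, and 52.5 FPKM in Gm31629-/- mice 1 to 3. The groups did not overlap, and Gm31629-/- mouse 2 stood well below the other Gm31629-/- mice. The mean was 5254 ± 1287 FPKM (SD, n = 3) in WT mice against 34.1 ± 28.2 FPKM (SD, n = 3) in Gm31629-/- mice, a ratio of 154. By mean level, Reg3b (ENSMUSG00000071356, chromosome 6, 78370657 to 78373466) ranked 3 of the 14657 tested genes in the WT mice and 1650 in Gm31629-/- mice. The log2 difference of FPKM + 1, Gm31629-/- minus WT, was −8.07 (SE 1.07), and it was −6.65 without Gm31629-/- mouse 2.

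Reg3g, its neighbour that binds peptidoglycan of Gram-positive bacteria, had the same order of groups at a lower level. WT mice had 717, 810, and 585 FPKM, and Gm31629-/- mice had 11.6, 1.08, and 1.62 FPKM. Mean levels were 704 ± 113 and 4.76 ± 5.92 FPKM (SD, n = 3 per group), a ratio of 148. Again the groups were fully apart and Gm31629-/- mouse 2 was lowest. Reg3g (ENSMUSG00000030017, chromosome 6, 78466269 to 78468872) ranked 49 in the WT mice and 7821 in Gm31629-/- mice, with a log2 difference of −7.42 (SE 0.63), which was −8.23 without Gm31629-/- mouse 1, the highest of its group. Recovered fragments were 23250 to 30848 per WT library and 451, 42, and 63 in Gm31629-/- mice 1 to 3, so counting error was small beside the spread between mice. Within WT mice the ratio of Reg3b to Reg3g FPKM stayed between 6.71 and 8.27. Within Gm31629-/- mice it was 4.15, 1.59, and 32.4, so the pair did not keep a fixed proportion where both were low.

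**Figure D1:**
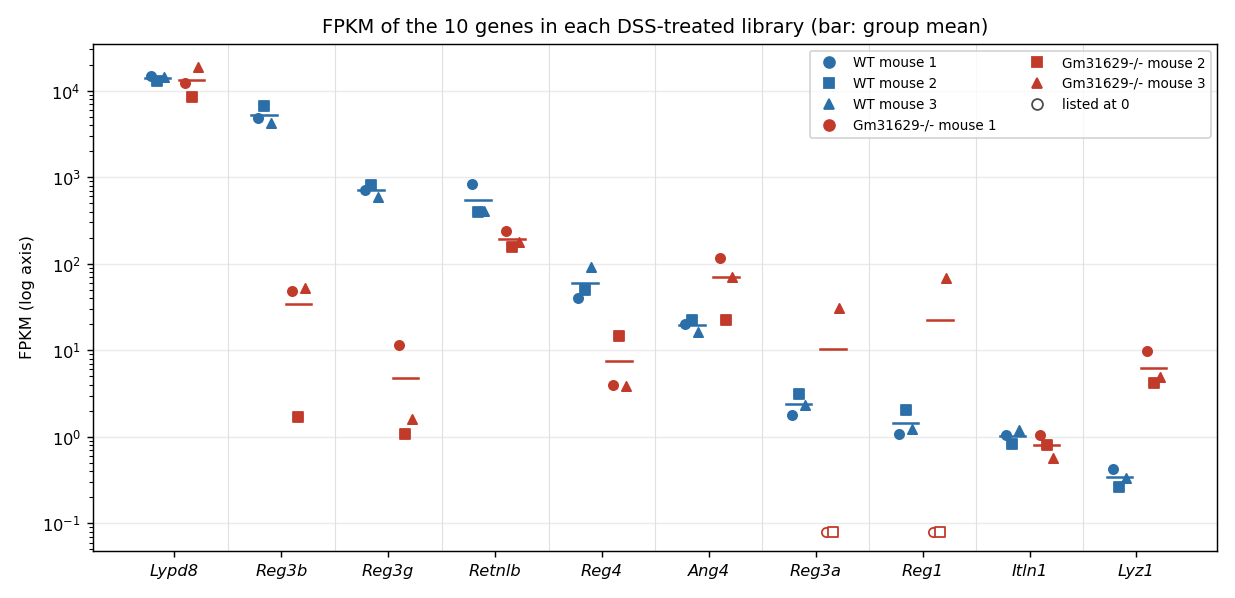
FPKM of each of the 10 genes (log axis) in the 3 WT mice (blue) and the 3 Gm31629-/- mice (red), with a symbol per mouse, a bar at the group mean, and open symbols for values listed at 0. Reg3b, Reg3g, Reg4, and Retnlb lay lower in every Gm31629-/- mouse, Lyz1 lay higher in every one, and the groups overlapped for the other 5 genes.

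Reg3a and Reg1, which lie between Reg3b and Reg3g, did not follow them. Reg1 is a lectin best known from pancreatic acinar cells and regenerating epithelium. Reg1 (ENSMUSG00000059654, chromosome 6, 78422711 to 78428667) was at 1.08, 2.03, and 1.24 FPKM in the WT mice and at 0, 0, and 67.6 FPKM in Gm31629-/- mice. Reg3a (ENSMUSG00000079516, chromosome 6, 78380709 to 78383827), a close paralog of Reg3b, was at 1.77, 3.16, and 2.32 FPKM in the WT mice and at 0, 0, and 31.0 FPKM in Gm31629-/- mice. For both genes the high value belonged to Gm31629-/- mouse 3, the library with pancreatic acinar transcripts, and the other Gm31629-/- libraries held no fragment. In that library Reg1 was 46.7 times and Reg3a 12.8 times the WT mean. The direction of the group difference depended on the libraries included. With all mice the log2 difference was 0.76 (SE 1.53) for Reg1 and −0.09 (SE 1.26) for Reg3a, and without Gm31629-/- mouse 3 it was −1.27 and −1.75. Reg1 also turned to −0.77 with a pseudocount of 0.1, and Reg3a turned to 0.25 under a scaling to epithelial genes and to 0.75 without Gm31629-/- mouse 1 or without Gm31629-/- mouse 2.

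The other 2 genes of the cluster showed the same library. Reg2, which is 78.8% identical to Reg1 in its coding sequence, was at 92.1 FPKM in Gm31629-/- mouse 3 and listed at 0 in the other 5 libraries. Reg3d was at 9.26 FPKM in Gm31629-/- mouse 3, at 0 in the other Gm31629-/- mice, and at 0.76 to 1.49 FPKM in WT mice. In limma neither passed, with log2 differences of 2.18 (SE 1.63, adjusted p = 0.309) for Reg2 and 0.09 (SE 0.85, adjusted p = 0.942) for Reg3d, and the latter was −1.03 without Gm31629-/- mouse 3. In that library Reg3b had 1102 fragments, close to the 1011 of Gm31629-/- mouse 1, and Reg3g had 63, both far below the WT libraries. Thus within 98.2 kb of chromosome 6 the outer genes, Reg3b and Reg3g, were high in all WT mice, and the 4 genes between them were at most 3.16 FPKM there.

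**Figure D2:**
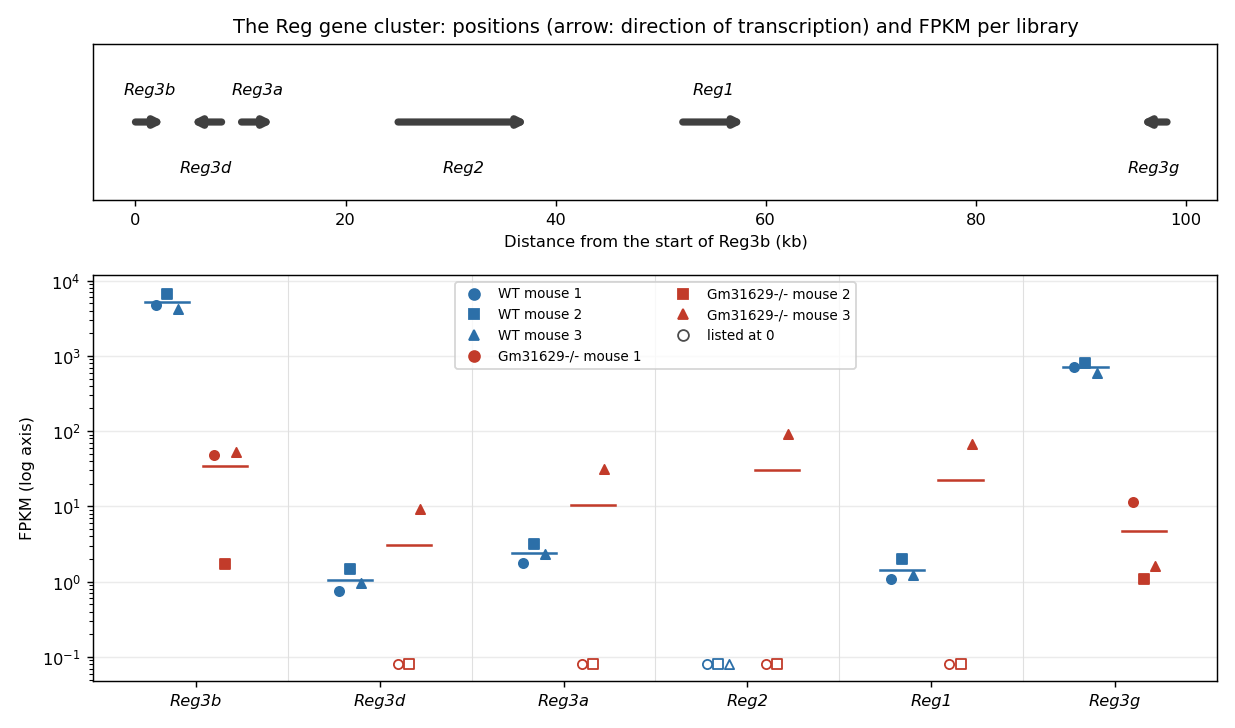
Top, the 6 genes of the Reg cluster drawn to scale by distance from the start of Reg3b in kb, with arrows for the direction of transcription; bottom, their FPKM per mouse on a log axis, WT in blue, Gm31629-/- in red, bars at group means, and open symbols for 0. Reg3b and Reg3g were high in WT mice, and Reg3d, Reg3a, Reg2, and Reg1 were highest in Gm31629-/- mouse 3.

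Reg4 lies outside the cluster, on chromosome 3 (ENSMUSG00000027876, 98222156 to 98236748), and its coding sequence is 55.0% identical to that of Reg3b. It marks deep crypt secretory cells of the colon. WT mice had 40.3, 49.7, and 90.6 FPKM and Gm31629-/- mice had 3.94, 14.6, and 3.84 FPKM. All Gm31629-/- mice were below all WT mice, and here Gm31629-/- mouse 2 was the highest of its group. Means were 60.2 ± 26.8 and 7.46 ± 6.18 FPKM (SD, n = 3 per group), a ratio of 8.07 and a log2 difference of −3.0 (SE 0.50). Without Gm31629-/- mouse 2 the log2 difference was −3.56.

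Retnlb, or RELMβ, is a goblet cell protein that permeabilizes Gram-negative bacteria. Its level was 845, 392, and 410 FPKM in the WT mice and 238, 158, and 179 FPKM in Gm31629-/- mice, so the groups did not overlap but lay closer together than for Reg3b, Reg3g, or Reg4. Mean levels were 549 ± 257 and 192 ± 41.7 FPKM (SD, n = 3 per group), a ratio of 2.86. The log2 difference of Retnlb (ENSMUSG00000022650, chromosome 16, 48816856 to 48818892) was −1.44 (SE 0.33). It was −0.73 when each library was scaled to its 18 epithelial genes, a scaling that moved the median of all tested genes from 0.15 to 0.68. Retnlb kept a high place among Gm31629-/- transcripts, at rank 225 against 61 in WT mice.

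Lyz1, the lysozyme of Paneth cells, was the member that was higher in all Gm31629-/- mice, from a very low WT level. It was at 0.428, 0.264, and 0.337 FPKM in WT mice, or 6 to 10 fragments, and at 9.72, 4.16, and 4.96 FPKM in Gm31629-/- mice, or 97 to 226 fragments. Means were 0.343 ± 0.0822 and 6.28 ± 3.01 FPKM (SD, n = 3 per group), a ratio of 18.3. The log2 difference of FPKM + 1 of Lyz1 (ENSMUSG00000069515, chromosome 10, 117287797 to 117292868) was 2.36 (SE 0.28), and 3.77 with a pseudocount of 0.1. Lyz1 passed the filter on low values only through the Gm31629-/- libraries. Its coding sequence is 95.0% identical to that of Lyz2, the lysozyme of macrophages and neutrophils. Reads of this pair may therefore be assigned to the wrong gene or left uncounted. Lyz2 was at 22.9, 33.8, and 26.3 FPKM in the WT mice and rose to 243, 621, and 347 FPKM in Gm31629-/- mice, with a log2 fold change of 3.73 (SE 0.34, adjusted p = 0.000456). Lyz1 amounted to 1.87%, 0.78%, and 1.28% of the Lyz2 FPKM in the WT mice and 4.01%, 0.67%, and 1.43% in Gm31629-/- mice, and these ranges overlap. Summed FPKM of 10 macrophage markers, Lyz2 among them, was 99.4 to 110 in the WT mice and 625 to 1435 in Gm31629-/- mice. Of the 10, 9 were called higher, beside 18.4% of all tested genes.

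Ang4, a ribonuclease with microbicidal activity, was higher in 2 of 3 Gm31629-/- mice. WT mice had 20.2, 22.5, and 16.3 FPKM, and Gm31629-/- mice had 116, 22.5, and 70.7 FPKM. Gm31629-/- mouse 2 was level with WT mouse 2, so the groups overlapped. Means were 19.7 ± 3.13 and 69.6 ± 46.6 FPKM (SD, n = 3 per group), with a log2 difference of 1.5 (SE 0.53) for Ang4 (ENSMUSG00000060615, chromosome 14, 51763878 to 51773590). Without Gm31629-/- mouse 2 it was 2.16, and without Gm31629-/- mouse 1 it was 1.0. The related ribonuclease Ang, 84.8% identical in coding sequence, was at 6.13 ± 0.409 FPKM in the WT mice and 4.38 ± 0.937 FPKM in the Gm31629-/- mice (SD, n = 3 per group) and did not pass in limma (adjusted p = 0.0927). The ratio of Ang4 to Ang FPKM was 2.6 to 3.96 in the WT mice and 21.8, 5.08, and 20.7 in Gm31629-/- mice 1 to 3.

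The paralogs of Retnlb differed from it in direction. Retnlg, a resistin-like gene of neutrophils, was at 0.889 ± 0.371 FPKM in the WT mice and rose to 25.3 ± 21.7 FPKM in the Gm31629-/- mice (SD, n = 3 per group), a log2 fold change of 3.48 (SE 0.55, adjusted p = 0.00296). Retnla, known from alternatively activated macrophages, was listed at 0, 0, and 0.178 FPKM in the WT mice and rose to 3.36, 3.26, and 2.0 FPKM in Gm31629-/- mice (adjusted p = 0.00074). Retnla passed the filter on low values only through the Gm31629-/- libraries, which limits what this p-value can show. Retnlb FPKM exceeded Retnlg FPKM 312 to 1358 times in the WT mice and 4.78 to 20.4 times in Gm31629-/- mice. Of 8 tested neutrophil markers, 7 were called higher, beside 18.4% of all tested genes. The summed level of all 10 listed neutrophil markers was 69.8 to 127 FPKM in WT mice. It was 485, 724, and 1024 FPKM in Gm31629-/- mice 1 to 3. Most of that sum was Ly6g, at 288, 596, and 965 FPKM in Gm31629-/- mice 1 to 3, whereas Retnlg ran the other way among these mice, at 49.9, 17.1, and 8.77 FPKM.

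**Figure D3:**
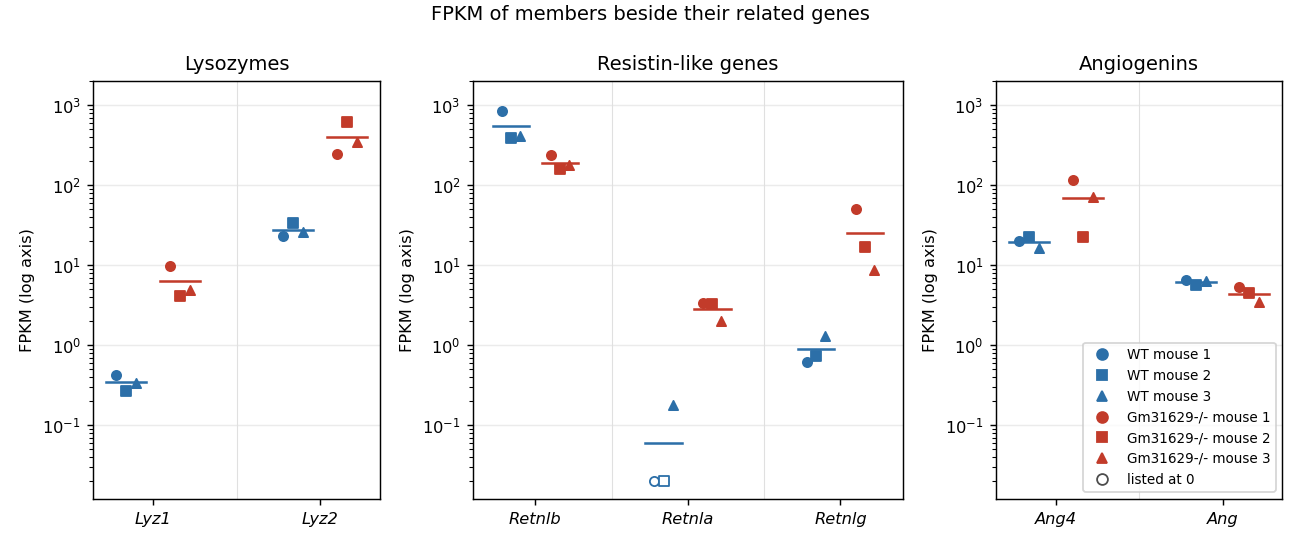
FPKM per mouse (log axes) of Lyz1, Retnlb, and Ang4 beside their related genes, WT in blue and Gm31629-/- in red, with bars at group means and open symbols for 0. Lyz1 and Lyz2 were both higher in Gm31629-/- mice, Retnlb was lower while Retnla and Retnlg were higher, and Ang4 was higher in Gm31629-/- mice 1 and 3 while Ang was not called.

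Lypd8, a glycosylated surface protein that binds bacterial flagella, was the most abundant tested transcript by mean level in both groups. It was at 14655, 12786, and 14393 FPKM in the WT mice and 12272, 8525, and 18657 FPKM in Gm31629-/- mice. The Gm31629-/- values lay on either side of the WT range. Means were 13945 ± 1012 and 13151 ± 5123 FPKM (SD, n = 3 per group), a log2 difference of −0.16 (SE 0.34) for Lypd8 (ENSMUSG00000013643, chromosome 11, 58379043 to 58390728), which was 0.12 without Gm31629-/- mouse 2 and 0.55 under the epithelial scaling. Lypd8 took 3.7% to 4.16% of all FPKM in the WT mice and 3.52%, 2.54%, and 5.2% in Gm31629-/- mice. Summed absorptive colonocyte markers had the same low library. They were at 8561, 3360, and 9754 FPKM in Gm31629-/- mice against 10190 to 12766 FPKM in WT mice. Car1 was the largest part of the WT sum, at 3886, 5459, and 4731 FPKM. Of the 10 markers, 1 was called higher, 3 were called lower, and 6 did not pass, with a median log2 fold change of −0.01. Over all tested genes the shares called higher and lower were 18.4% and 4.64%.

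Itln1, a lectin for microbial glycans, was low in every mouse. Itln1 (ENSMUSG00000038209, chromosome 1, 171518122 to 171535294) was at 1.04, 0.827, and 1.21 FPKM in the WT mice and 1.05, 0.807, and 0.573 FPKM in Gm31629-/- mice, from 12 to 26 fragments. The groups overlapped, and the log2 difference of −0.17 (SE 0.17) became 0.16 under the epithelial scaling. At this depth a difference of that size was within the spread between mice.

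Across the set, 5 of the 10 genes had groups that did not overlap, 4 with Gm31629-/- lower and 1 with Gm31629-/- higher. Of all 14657 tested genes, 57.8% did not overlap, 21.5% with Gm31629-/- lower and 36.3% with Gm31629-/- higher. By the limma rule, 23.1% of all tested genes were called in either direction. Since the genes were chosen on this contrast, nothing is read from these counts. Without Gm31629-/- mouse 3, 8 of 10 genes did not overlap, against 65.4% of all tested genes. The median log2 difference of the 10 genes was −0.16 beside 0.15 for all tested genes, and it was 0.21 under the epithelial scaling and −1.34 without Gm31629-/- mouse 3. Reg3b, Reg3g, Reg4, and Retnlb stayed lower and Lyz1 and Ang4 stayed higher under every scaling. These signs also stayed with any 1 mouse left out, but leaving out 1 mouse could not have turned them. The groups of these genes did not overlap, apart from Ang4, whose groups met only at 22.5 FPKM.

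The order of the genes by level also differed between the groups. In WT mice it ran from Lypd8 to Reg3b, then Reg3g and Retnlb with overlapping ranges, then Reg4 and Ang4. Reg3a, Reg1, and Itln1 followed, where Reg3a overlapped with Reg1 and Reg1 with Itln1, and Lyz1 was lowest. By mean level in Gm31629-/- mice, Lypd8 and Retnlb stood above the rest without overlap, the ranges of each neighbouring pair from Ang4 down through Reg3b, Reg1, Reg3a, Reg4, Lyz1, and Reg3g overlapped, and Itln1 had the lowest mean. The means of Reg1 and Reg3a rest on Gm31629-/- mouse 3, and in Gm31629-/- mice 1 and 2 both were at 0, below Itln1. The 9 genes other than Lypd8 together took 1.83%, 2.31%, and 1.52% of all FPKM in the WT mice and 0.123%, 0.0605%, and 0.115% in Gm31629-/- mice, mostly through Reg3b, which alone took 1.21% to 1.94% in WT mice.

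Genes with the most similar profiles were found by the root mean square difference of centred log2(FPKM + 1) over the 6 libraries, where a smaller value means a closer profile. Reg3g was closest to Slc51a (0.87), Cldn2 (1.19), and Osr2 (1.26), and Reg3b was closest to the same genes at greater distance (1.71, 1.86, and 1.97). Slc51a, a bile acid transporter subunit, was at 74.7, 88.9, and 143 FPKM in the WT mice and at 2.24, 0.135, and 0 FPKM in Gm31629-/- mice. Reg4 was closest to Pkp1 (0.53), L1cam (0.53), and Hoxb6 (0.55). The closest genes to Reg1 were Try5 (0.59), Ctrl (0.65), and 2210010C04Rik (0.66), and Ctrl, a pancreatic protease, was at 118 FPKM in Gm31629-/- mouse 3 and at most 1.41 FPKM elsewhere. Reg3a was closest to Reg3d (0.56), Tff2 (0.68), and the elastase Cela1 (0.75). The remaining genes had closer neighbours, namely Retreg1 (0.08), Gm27454 (0.25), and 9830144P21Rik (0.25) for Ang4, Zbtb16 (0.09), Nat8f4 (0.13), and Sun2 (0.15) for Lyz1, and 9130208D14Rik (0.12), Gm8979 (0.23), and Gm45912 (0.25) for Retnlb. Lypd8 was closest to Gfi1 (0.11), Klk1 (0.11), and Snrnp25 (0.12), and Itln1 to BC048403 (0.03), Hira (0.04), and Vta1 (0.04). Distances are small where a gene itself varies little, as Itln1 does.

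To place the set among other host defense genes, 51 further antimicrobial genes were listed, of which 36 were in the table and 32 were tested. The other 15, many of them Paneth cell defensins, were not analysed here. Of all tested genes, 18.4% were called higher and 4.64% lower. Of the 32 genes, 15 rose, 4 fell, and 13 did not pass, with a median log2 fold change of 1.03. Slpi, a secreted protease inhibitor of mucosal surfaces, rose most, from 2.75 ± 0.776 FPKM in WT mice to 193 ± 166 FPKM in the Gm31629-/- mice (SD, n = 3 per group, log2 fold change 5.32, SE 0.60, adjusted p = 0.000902). The calprotectin genes S100a8 and S100a9 rose by log2 fold changes of 3.93 and 4.16 (adjusted p = 0.000632 and 0.000641). Lcn2, which withholds iron from bacteria, rose from 2.95 ± 1.49 to 30.4 ± 12 FPKM (SD, n = 3 per group). Many of the genes that rose, such as S100a8, S100a9, Lyz2, and Retnlg, are abundant in neutrophils or macrophages. S100a8, S100a9, and Camp of this list are also in the neutrophil marker list and Lyz2 is in the macrophage list, so those counts share genes. Zg16, a goblet cell lectin that binds Gram-positive bacteria, rose as well, from 1740, 1775, and 1196 FPKM in WT mice to 7827, 5355, and 6977 FPKM in Gm31629-/- mice (adjusted p = 0.00123).

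The 4 antimicrobial genes that fell were Dmbt1, Lgals3, Pla2g5, and Lgals9. Dmbt1, a secreted scavenger receptor that binds bacteria, went from 2580, 2687, and 2828 FPKM in WT mice to 453, 385, and 1176 FPKM in Gm31629-/- mice (log2 fold change −2.19, SE 0.41, adjusted p = 0.00559). Lgals3, a galectin of epithelium and macrophages, went from 1028 ± 18.6 to 356 ± 19.8 FPKM (SD, n = 3 per group, adjusted p = 0.00053). Pla2g5 and Lgals9 had log2 fold changes of −1.36 and −1.12 (adjusted p = 0.0114 and 0.0286). Under the epithelial scaling 1 of these 4 calls was left, that of Dmbt1, and the call of Lgals9 was also lost without Gm31629-/- mouse 3, WT mouse 1, or WT mouse 3. The log2 fold change of Dmbt1 was −1.88 to −2.69 with any 1 mouse left out.

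**Figure D4:**
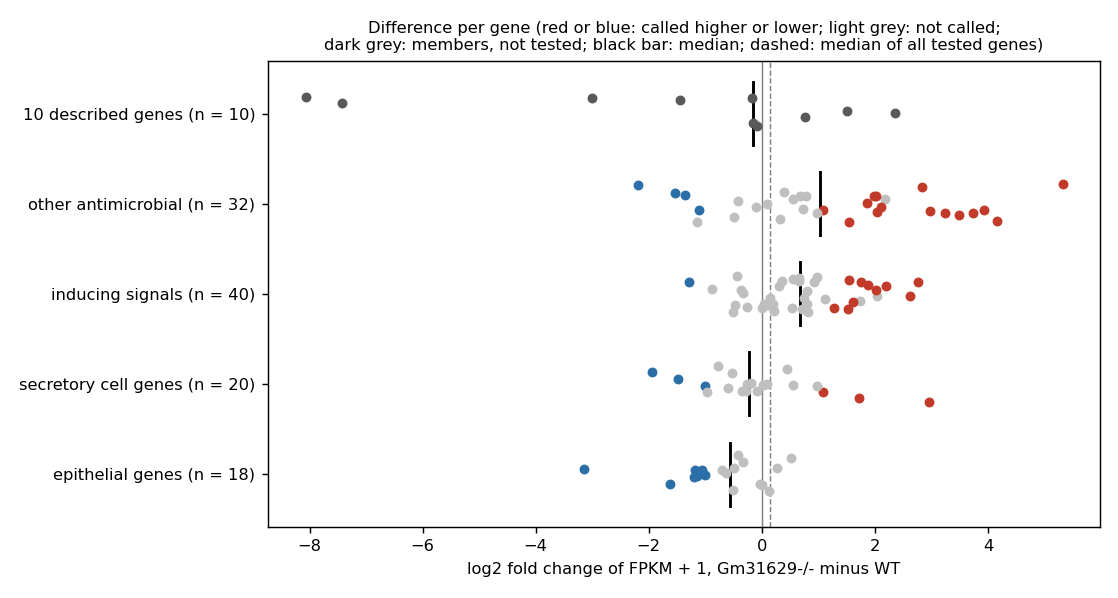
Log2 fold change of FPKM + 1 (Gm31629-/- minus WT) of each gene in 5 lists, with a black bar at the list median, red for genes called higher, blue for called lower, light grey for not called, dark grey for the 10 described genes, which were not tested, and a dashed line at the median of all tested genes. Reg3b and Reg3g lie at −8.07 and −7.42, below every listed gene, while 15 of 32 other antimicrobial genes were called higher.

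The signals known to induce Reg3b, Reg3g, and Retnlb were examined next, from a list of 47 genes of which 45 were in the table and 40 were tested. Of these 40, 10 rose, 1 fell, and 29 did not pass, beside 18.4% called higher and 4.64% called lower of all tested genes. The median log2 fold change of the list was 0.68. Il22, the main inducer of Reg3 genes, was at 0.39, 0.05, and 0.0959 FPKM in the WT mice and 0.049, 16.9, and 2.11 FPKM in Gm31629-/- mice. It did not pass (log2 fold change 1.73, SE 0.90, adjusted p = 0.158), the groups overlapped through Gm31629-/- mouse 1, and without that mouse it passed (2.67, adjusted p = 0.0221). Without Gm31629-/- mouse 2 it was 0.63 (adjusted p = 0.293). Il22 passed the filter on low values only through the Gm31629-/- libraries, which limits what its p-values can show. Il22ra1, the epithelial receptor subunit for IL-22, was at 27.2 ± 5.09 FPKM in the WT mice and 22.8 ± 6.17 FPKM in the Gm31629-/- mice (SD, n = 3 per group, adjusted p = 0.393). Gm31629-/- mouse 2 thus had the highest Il22 and the lowest Reg3b and Reg3g of the 6 mice.

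Among the other cytokines, Il1b rose from 5.75, 5.18, and 5.52 FPKM in WT mice to 16.7, 125, and 37.6 FPKM in Gm31629-/- mice (log2 fold change 2.77, SE 0.63, adjusted p = 0.0117). Il33, an alarmin, had a log2 fold change of 2.62 (SE 0.70, adjusted p = 0.0216), a call that was lost without WT mouse 1 or WT mouse 3. Il6 passed with all mice (1.54, SE 0.44, adjusted p = 0.0277) but did not pass in 5 of 6 fits with 1 mouse left out, the exception being the fit without Gm31629-/- mouse 1. Receptors of the IL-6 family rose, with log2 fold changes of 2.19 for Il6st, 2.02 for Il11ra1, and 1.88 for Osmr (adjusted p = 0.00173, 0.000397, and 0.00619). Il17a was at 0, 1.85, and 1.49 FPKM in Gm31629-/- mice and up to 0.285 FPKM in the WT mice and did not pass (adjusted p = 0.177), but it passed without Gm31629-/- mouse 1 (log2 fold change 1.18, adjusted p = 0.00365). Its log2 fold change was 0.42 without Gm31629-/- mouse 2 (adjusted p = 0.405) and 0.52 without Gm31629-/- mouse 3 (adjusted p = 0.383). Like Il22, both Il6 and Il17a passed the filter on low values only through the Gm31629-/- libraries. Il13, an inducer of Retnlb, was listed at 0 in 5 libraries and was under the filter.

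Of the signal transducers, Stat3 was at 30.6 ± 2.18 FPKM in the WT mice and 40.1 ± 9.15 FPKM in the Gm31629-/- mice (SD, n = 3 per group, adjusted p = 0.148), and Myd88, at 23.9, 15.7, and 20.6 FPKM and at 16.4, 29.8, and 19.7 FPKM, had an adjusted p of 0.758. Socs3, a target and feedback inhibitor of STAT3, was at 34.0, 28.7, and 29.0 FPKM in the WT mice and 27.5, 180, and 60.6 FPKM in Gm31629-/- mice. It did not pass (log2 fold change 1.12, SE 0.59, adjusted p = 0.163) but did without Gm31629-/- mouse 1 (1.75, adjusted p = 0.0197), and it was 0.41 without Gm31629-/- mouse 2 (adjusted p = 0.336). Tlr5, the flagellin receptor, was the gene of this list that fell, from 3.14 ± 0.913 to 0.692 ± 0.417 FPKM (SD, n = 3 per group, adjusted p = 0.00644), a call that the epithelial scaling removed. Il22, Il1b, Il6, and Socs3 were thus each highest in Gm31629-/- mouse 2, the mouse with the lowest Reg3b. Of the 6 mice it also had the highest summed macrophage markers (1435 FPKM) and the lowest summed absorptive colonocyte markers (3360 FPKM). The part of tissue makeup in this contrast, which rests on 1 mouse, was not tested.

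**Figure D5:**
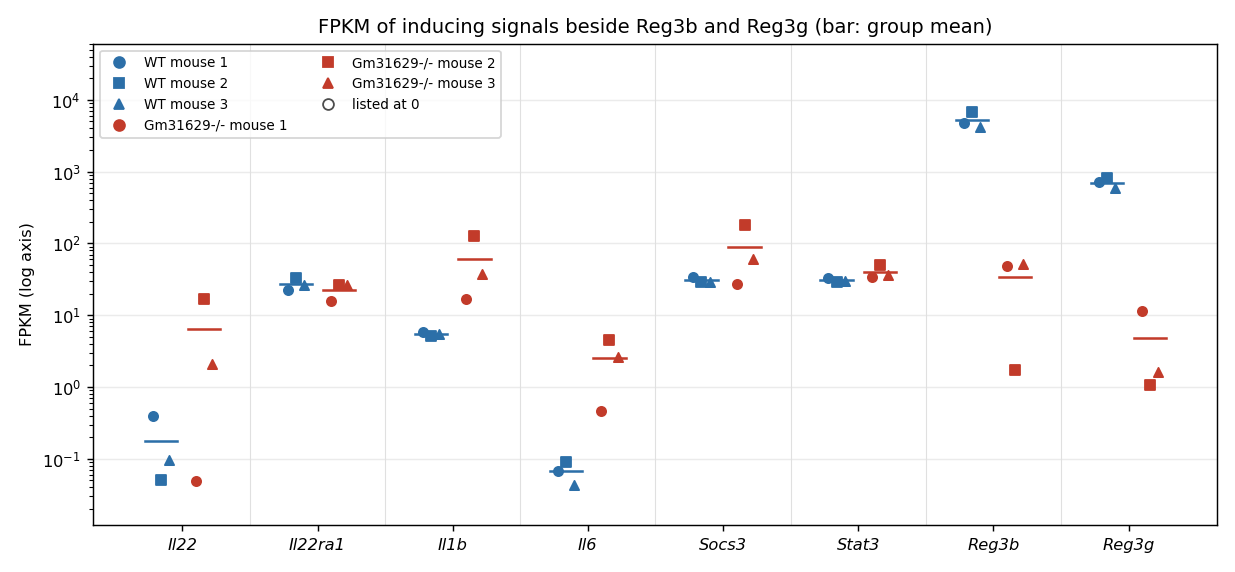
FPKM per mouse (log axis) of Il22, Il22ra1, Il1b, Il6, Socs3, and Stat3 beside Reg3b and Reg3g, WT in blue and Gm31629-/- in red, with bars at group means. Gm31629-/- mouse 2 (square) was highest for Il22, Il1b, Il6, and Socs3 and lowest for Reg3b and Reg3g.

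The cells that make these proteins were looked at through marker lists. Of 20 goblet and other secretory cell genes, 3 rose, 3 fell, and 14 did not pass, against the same 18.4% and 4.64% of all tested genes, and the median log2 fold change was −0.23. Clca1, Tff3, and Fcgbp, components of mucus, rose by 2.96, 1.71, and 1.09 on the log2 scale (adjusted p = 0.000601, 0.00191, and 0.0119), the last losing its call without Gm31629-/- mouse 3 or WT mouse 3. The protease Mmp7, which activates defensins in Paneth cells, went from 3.27 ± 0.726 to 0.102 ± 0.0878 FPKM (SD, n = 3 per group, log2 difference −1.94, adjusted p = 0.000501). Creb3l1 and Agr2, of the secretory pathway, had log2 fold changes of −1.49 and −1.0 (adjusted p = 0.00212 and 0.0142). The call of Agr2 was lost without Gm31629-/- mouse 1, Gm31629-/- mouse 2, or WT mouse 1, and under the epithelial scaling only Mmp7 kept its call among these 3. Muc2, the main gel-forming mucin, was at 1297 ± 127 and 1084 ± 98.2 FPKM (SD, n = 3 per group) and did not pass (adjusted p = 0.272). Without overlap of the groups, 6 of the 20 genes lay lower in Gm31629-/- mice and 4 lay higher. Of all tested genes, 21.5% lay lower and 36.3% higher without overlap, so nothing is read from these counts. Among the 6 that lay lower were Spdef and Atoh1, transcription factors of the secretory lineage. Their log2 fold changes were −0.97 and −0.77 (adjusted p = 0.00309 and 0.0204), short of the fold needed for a call.

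Of 18 general epithelial genes, 7 fell, 0 rose, and 11 did not pass in limma, where 4.64% of all tested genes were called lower and 18.4% higher. Their median log2 fold change was −0.57. At an unadjusted p under 0.05, 1 was higher and 11 were lower, and the voom fit also had 0 that rose. Epcam was at 1104 ± 85.1 FPKM in the WT mice and 1109 ± 104 FPKM in the Gm31629-/- mice (SD, n = 3 per group, adjusted p = 0.982), whereas Cdx2, a transcription factor of intestinal identity, had a log2 fold change of −3.14 (adjusted p = 0.00847). With each library scaled to these 18 genes, the log2 difference was −7.41 for Reg3b, −6.82 for Reg3g, and −2.35 for Reg4.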

How the data were processed

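RNA-Seq of distal colon total RNA was analysed for 3 Gm31629-/- and 3 WT mice, grouped and numbered by their labels. The authors deposited FPKM values per gene and mouse, so fragments were divided by gene length and library depth before deposit. The submitters' processing notes name HISAT2 2.1.0, HTSeq 0.6.0, and GRCm38, and the study's methods name DEGseq. The annotation is not given in the sources used here. Symbols, positions, and exon lengths came from GENCODE M21 (GRCm38), which matched 27488 of 27546 identifiers, and promoter sequences from RefSeq, which matched 9 of 10 members (all but Retnlb).

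The fragments behind FPKM values were recovered from the value of 1 fragment per gene. Among values of at most 20 fragments, 96.3% to 97.2% in each library came within 0.1 of a whole number. Recovered fragments of Retnlb were not whole at the annotated exon length. Depth was 18005954 to 18795144 fragments per library. The 14657 genes whose mean FPKM reached 0.5 were tested with limma 3.58.1 in R 4.3.3 (eBayes with a trend) on log2(FPKM + 1), which understates changes of low genes. A gene with a mean under 0.5 FPKM in 1 group can pass this filter through the other group alone. Camp did so through the Gm31629-/- libraries and Mmp7 through the WT libraries. The counts of calls include such genes. P-values were adjusted by Benjamini-Hochberg over all tested genes, and calls needed an adjusted p under 0.05 with a change beyond 1 on the log2 scale. If the libraries were not separate mice, the p-values would measure technical spread only. The scripts were tested on simulated data.

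The members and lists were chosen with earlier results of these data known, so the members were described without a test. All members are named. From the lists of antimicrobial, inducing, and secretory cell genes, those named were the 5 called genes with the largest rise and the 5 with the largest fall whose groups did not overlap, the paralogs of members, and 9 inducers, and for each member the 3 genes with the nearest profile. Lcn2, Zg16, Camp, Muc2, Spdef, Atoh1, Epcam, Cdx2, and genes of marker lists were named after their values were seen. Identities of coding and promoter sequences came from global alignments (Biopython 1.88), and figures were drawn with matplotlib 3.10.9. Alternatives were no filter or a filter at a mean FPKM of 5, a pseudocount of 0.1, rescaling to equal sums (TPM scale), by median ratio, or by 18 epithelial genes, eBayes without a trend, a replicate block, leaving out each mouse, voom on recovered fragments, and no fold threshold.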

Additional observations from a re-analysis of the deposited data

How the results depend on the processing

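Groups of 3 limit every comparison, and 1 mouse decided several values. Of all genes, 2704 were called higher and 680 lower (79.9% of calls higher). A filter at a mean FPKM of 5 left 956 called higher (66.0% of calls). Scaling to epithelial genes gave 4867 higher and 220 lower (95.7% of calls higher). Dropping the fold threshold gave 4238 and 2138. Inducing signals called higher numbered 10, with 4 with that filter, 20 under the epithelial scaling, and 16 with no fold threshold. Those called lower numbered 1, with 0 with that filter, 0 under the epithelial scaling, 3 with no fold threshold, and 1 to 2 with a mouse left out. The epithelial scaling also gave 6 secretory cell genes higher and 1 lower, 1 epithelial gene higher and 1 lower, and 1 other antimicrobial gene lower. With no fold threshold 6 secretory cell genes were lower. The median log2 difference of the 10 genes was 0.21 under the epithelial scaling, −1.65 by voom, and −1.34 to −0.03 with a mouse left out, and 5 to 8 of them had groups that did not overlap with a mouse left out.

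Signs turned under the epithelial scaling for Ang (0.17), Il22ra1 (0.41), Reg3a (0.25), Lypd8 (0.55), and Itln1 (0.16). They also turned for Myd88 by median ratio (−0.06), for Reg1 with a pseudocount of 0.1 (−0.77) and by voom (−1.85), and for Reg3d with a pseudocount of 0.1 (−1.31), on the TPM scale (−0.40), and by voom (−2.25). With a mouse left out, ranges were −0.13 to 0.28 for Myd88, −1.03 to 0.65 for Reg3d, −1.75 to 0.75 for Reg3a, −1.27 to 1.78 for Reg1, and −0.44 to 0.12 for Lypd8. Where these values changed, the cause was not tested. Over 42 named genes and all alternatives, 554 of 610 values kept their direction and their side of the threshold. Replicate numbers did not pair the mice (same-number correlations of 0.036, −0.108, and 0.014), and the replicate block called 2709 genes higher and 648 lower. Of the 3 Gm31629-/- libraries, 1 correlated best with the WT library of its own number.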
